A study of Arabidopsis thaliana with 18 samples.

Results

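Acetylation of histone H3 at lysine 14 (H3K14ac) was compared between Arabidopsis seedlings mutant for the histone deacetylase HDA9 (allele hda9-1) and the Columbia wild type (Col, WT below). The data were every H3K14ac peak of the 1 library of each genotype, 11141 peaks in WT and 13122 in hda9-1, which together are 24263 of the 111600 peaks in the 9 peak lists of the study. The study holds 18 samples, of which the 9 inputs were not analysed here. Both genotypes were seedlings of the Col ecotype on agar plates, 10 days old, kept at 23 °C under days of 16 h light and 8 h dark. The labels give the hda9-1 allele by name only, and the titles of its libraries write "hdac" in its place. Each genotype had 1 H3K14ac library, so nothing below on H3K14ac has a replicate check and no test was made. The same genotypes had 2 libraries each for acetylation of lysine 9 (H3K9ac), and the pwr-2 mutant had 1 H3K14ac library, and both are used here for values set beside those of hda9-1.

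Acetyl groups on histone H3 are added by acetyltransferases and removed by deacetylases, and in plants they are found mostly at genes that are, or can be, transcribed. HDA9 belongs to the RPD3-type deacetylases, for which a loss of function can leave acetylation in place at genes where the enzyme acts. POWERDRESS (PWR), the gene mutated in pwr-2, encodes a SANT-domain protein. Seedlings are a mixture of cell types, so a peak present in few cells and a weak peak in all cells cannot be told apart.

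The deposited lists give a position and a number of reads for each peak. H3K14ac peaks held 667780 reads and covered 14.9 Mb in WT, and held 875104 reads and covered 15.7 Mb in hda9-1. The peaks lay almost entirely over genes, with 93.4% of peak bases inside annotated genes in WT and 93.8% in hda9-1. A gene was counted as marked where peaks lay over 50% or more of the 500 bp at 1 or other end (over 50% of any gene shorter than that). Start and end of a gene are treated alike, since the gene table has no strand. By this rule 12230 of 37899 genes were marked in WT (32.3%) and 14372 in hda9-1 (37.9%). Reads in peaks moved with genotype, and were 1.31 times as many in hda9-1 as in WT. The part of this in the number of marked genes was not tested. Total reads of each library were not used, so sequencing depth and enrichment cannot be told apart. Scaling by reads in peaks, used below, removes any change common to all peaks.

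As a check of the tissue, 39 of 40 light-harvesting and photosynthesis genes carried H3K9ac in both WT libraries, against 1 of 20 seed maturation genes. H3K14ac marked 9 of the same 40 photosynthesis genes and 2 of the 20 seed genes in WT. The photosynthesis genes were therefore poor in H3K14ac peaks in these lists although nearly all had H3K9ac. Of 28 meristem and floral identity genes, which are active in few cells of a seedling, 3 were marked with H3K14ac and 6 had H3K9ac in both WT libraries.

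The HDA9 gene itself had an H3K14ac peak of 600 bp with 38 reads in WT and of 800 bp with 56 reads in hda9-1. This peak does not check the genotype, since a lesion in HDA9 need not remove acetylation from its own gene. PWR had 663 bp of peak in WT, none over the gene in hda9-1 and again 663 bp in pwr-2. By the rule it lost the mark in hda9-1. The WT peak over PWR held 64 reads over 1400 bp and also touched a hda9-1 peak outside the gene. Reads of HDA9 are also uncertain in part, because hda10 and hda17 are close copies of it.

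Most H3K14ac peaks were found in both genotypes. Of the WT peaks, 10130 (90.9%) overlapped a hda9-1 peak and 1011 (9.07%) did not. Of the hda9-1 peaks, 10204 (77.8%) overlapped a WT peak and 2918 (22.2%) did not. A read minimum carried over from WT for the same width left 11481 hda9-1 peaks. Then 1650 peaks were found only in WT and 1979 only in hda9-1. This minimum drops hda9-1 peaks alone, so the first number can only rise and the second only fall. Peaks found only in hda9-1 were narrow, with a median of 800 bp and 42 reads, whereas shared hda9-1 peaks had a median of 1000 bp and 64 reads. Peaks found only in WT were wide and thin, with a median of 1400 bp and 48 reads, against 1200 bp and 53 reads for shared WT peaks. The read density of both groups lay below that of shared peaks. After scaling by reads in peaks, it was 36.0 reads per kb for WT-only peaks and 39.4 for hda9-1-only peaks. Shared peaks had 49.2 reads per kb in WT and 46.9 in hda9-1 on the same scale.

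**Figure D1:**
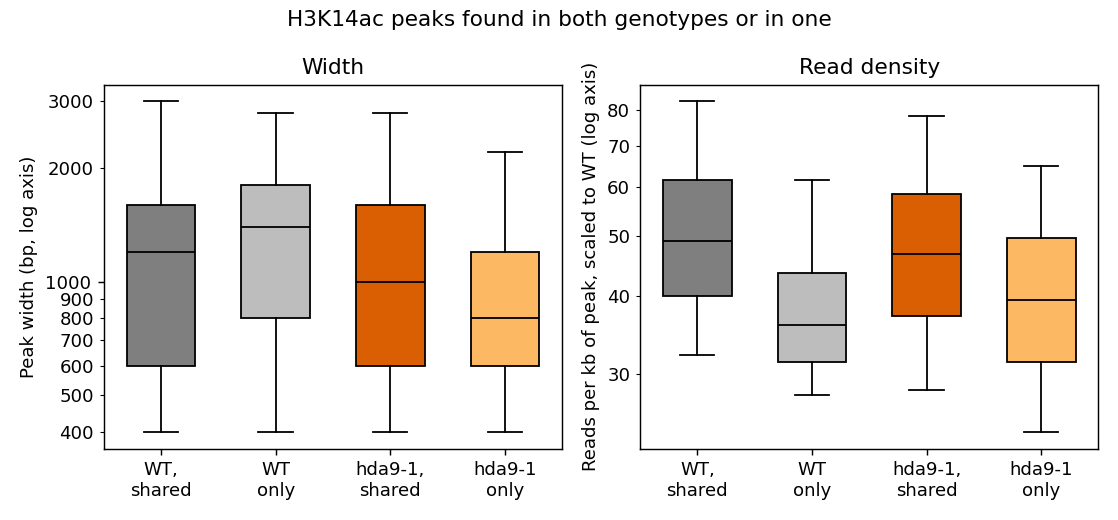
Width (left, bp) and read density (right, reads per kb) of H3K14ac peaks that overlapped a peak of the other genotype or did not. Density is scaled to WT by reads in peaks, and both axes are logarithmic. Boxes span the quartiles with the median as a line and whiskers reach the 5th and 95th percentiles of peaks, which are not replicates. WT-only peaks were wider (median 1400 bp) and hda9-1-only peaks narrower (median 800 bp) than shared peaks, and both had fewer reads per kb.

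The share of peaks found only in hda9-1 fell with peak width, from 32.0% of peaks of 200 to 600 bp to 22.2%, 18.3% and 12.3% in the next classes of width. For WT the share moved the other way, from 5.85% and 7.78% in the narrow classes to 11.3% and 11.1% in the wide ones. The chromosomes were alike: 21.2% to 22.8% of peaks were found only in hda9-1 and 8.32% to 9.74% only in WT on each of the 5. Peaks of 1 genotype were thus spread over the genome and differed from shared peaks in width and density.

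The peaks with most reads that had no counterpart included MLO13, a member of the MLO family of membrane proteins, with 159 reads over 4800 bp in WT. CESA10, a catalytic subunit of cellulose synthase, had a WT peak with 140 reads over 4000 bp. Among the hda9-1 peaks, the gene AT1G56690 had 162 reads over 4000 bp and AGO5, an ARGONAUTE protein that binds small RNAs, had 128 reads over 3400 bp. None of these 4 reached the read number of the strongest shared peaks, which had up to 287 reads in WT and 404 in hda9-1.

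At the level of genes, 3907 genes gained H3K14ac in hda9-1 (marked there and not in WT), which is 15.2% of the 25669 genes unmarked in WT. A further 1765 genes lost it, 14.4% of the 12230 marked in WT, and 10465 kept it. These calls rest on 3534 hda9-1 peaks that touch a gained gene and 1526 WT peaks that touch a lost gene. Of the gained genes, 3038 had no base of a WT peak, and 1238 of the lost genes had no base of a hda9-1 peak. The call follows the ends of genes: 177 gained genes had fewer covered bp in hda9-1 than in WT, and 70 lost genes had more.

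Gains outnumbered losses by 2142 genes, and this difference depended on the number of peaks used and on the rule. With hda9-1 reduced to its 11141 peaks with most reads, 3095 genes were gained and 2454 lost. Dropping hda9-1 peaks alone can only lower the gains and raise the losses. With the rule that peaks cover at least 50% of the whole gene, 2842 were gained and 2618 lost. Counting calls only where the peak touched none of the other genotype left 2536 gained and 791 lost.

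The size of the turnover can be set beside replicates of the other mark. Of the genes marked for H3K14ac in WT or hda9-1, 35.1% were marked in 1 of the 2 libraries only. The same share was 27.2% between the 2 WT libraries of H3K9ac, which have the same genotype. It was 11.6% between the 2 hda9-1 libraries of H3K9ac, which held more reads in peaks. How much 2 H3K14ac libraries of 1 genotype would differ was not measured.

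Among genes with a symbol, those with the largest gain in covered length had no H3K14ac peak listed over them in WT. A ranking by covered length itself favours long genes and genes without a peak in 1 genotype. ABCG43, an ABC transporter of the G subfamily, went from no peak in WT to 3600 bp in hda9-1, in a peak on chromosome 4 from 8699001 to 8702600 (TAIR10) with 109 reads. It had no peak in pwr-2, and H3K9ac covered 724 bp in the first WT library and none in the other 3. The peak lay wholly inside the gene, which is 6051 bp long.

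Translation initiation factor gene eIFiso4G1 went from no peak to 3415 bp, and pwr-2 had 2918 bp. RPS2, an intracellular immune receptor that recognises a bacterial effector, went from no peak to 3272 bp, with 128 reads in the peak on chromosome 4 from 13224601 to 13228200. In pwr-2 RPS2 also had 3272 bp. For RPS2, H3K9ac covered 0 and 2272 bp in the WT libraries and 1600 and 2463 bp in the hda9-1 libraries, so the 2 WT libraries disagreed.

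FRO6, a ferric reductase, had no H3K14ac peak in WT, 3200 bp in hda9-1 and, in pwr-2, 3395 bp. H3K9ac was present over FRO6 in every library, from 2759 to 3559 bp. Thus at FRO6 the lists differed in H3K14ac while H3K9ac was listed in both genotypes. BXL1, a beta-xylosidase of the cell wall, had the same pattern, with 0 bp of H3K14ac in WT, 2657 bp in hda9-1 and H3K9ac over 3257 to 3857 bp in all 4 libraries.

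The myosin gene XIA gained 3039 bp, the calcium-dependent protein kinase CPK2 gained 3000 bp, and DUF6, named for a domain of unknown function, gained 2800 bp. A hda9-1 peak over XIA also touched a WT peak outside the gene. H3K9ac was absent from XIA and DUF6 in all 4 libraries and covered 786 bp of CPK2 in 1 hda9-1 library. In pwr-2 H3K14ac covered 2039 bp of XIA, 1000 bp of CPK2 and 1400 bp of DUF6. XBAT34, a RING-type protein with ankyrin repeats, gained 2634 bp and had no peak in pwr-2 and no H3K9ac. RLP20, a receptor-like protein, gained 2600 bp and had 1802 bp in pwr-2, and its H3K9ac covered 802 bp in each WT library and 1002 and 2668 bp in the hda9-1 libraries.

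**Figure D2:**
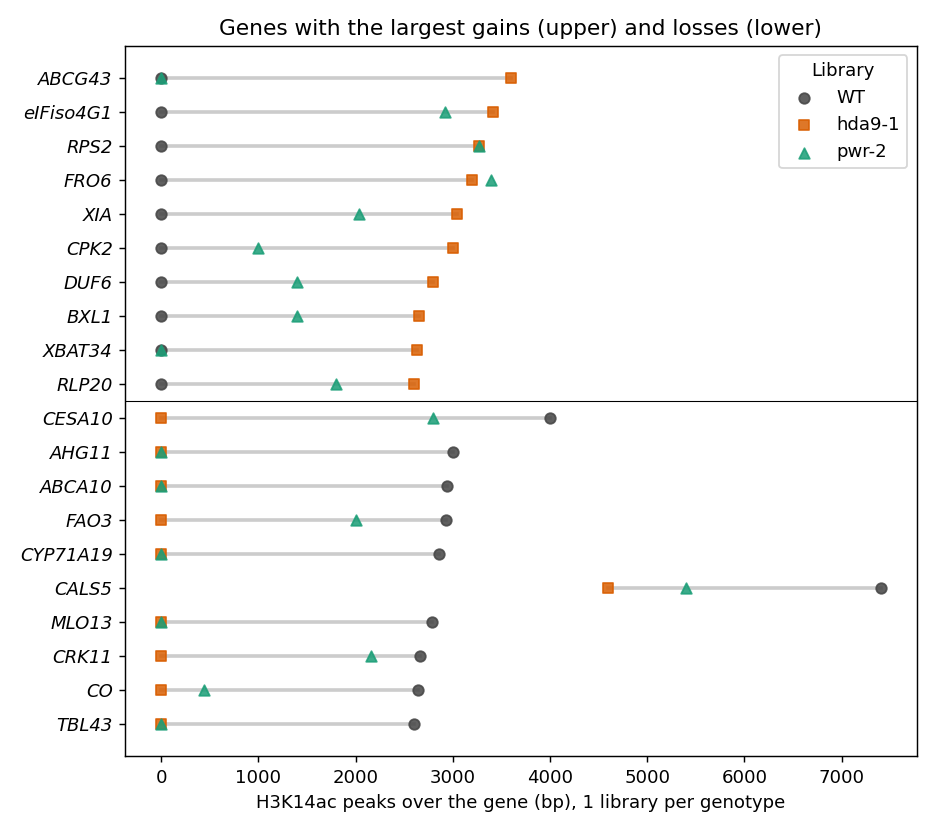
Length of H3K14ac peaks (bp) over the 10 genes with the largest gain and the 10 with the largest loss among genes with a symbol, with 1 library each for WT (circles), hda9-1 (squares) and pwr-2 (triangles). The gained genes had 0 bp in WT and at least 2600 bp in hda9-1, and the lost genes other than CALS5 had 0 bp in hda9-1. The genes were chosen for the difference between WT and hda9-1, and the pwr-2 values are read against the same WT library.

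The largest losses were ranked in the same way, and several of these genes had no H3K9ac in any library. CESA10 had 4000 bp of H3K14ac peak in WT, on chromosome 2 from 10867001 to 10871000, none in hda9-1 and 2800 bp in pwr-2. AHG11, a pentatricopeptide repeat protein of mitochondria, went from 3000 bp to none, and ABCA10, an ABC transporter, went from 2939 bp to none. MLO13 went from 2783 bp to none. Each of these 4 genes was without H3K9ac in all 4 libraries, and the last 3 had no H3K14ac peak in pwr-2.

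FAO3, a long-chain fatty alcohol oxidase, had 2929 bp of H3K14ac in WT, none in hda9-1 and 2000 bp in pwr-2, with H3K9ac over 1929 to 2400 bp in every library. CYP71A19, a cytochrome P450, had 2853 bp in WT and none in either mutant, and H3K9ac covered 2118 to 2853 bp of it. The members of the CYP71A group are similar in sequence, so how reads were shared among them is uncertain. CALS5, a callose synthase needed for the pollen wall, kept a peak in all 3 genotypes: 7400 bp in WT, 4600 bp in hda9-1 and, in pwr-2, 5400 bp. It was called lost because the hda9-1 peaks covered less than 50% of the 500 bp at both ends.

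CRK11, a cysteine-rich receptor-like kinase, had 2658 bp in WT, none in hda9-1 and 2160 bp in pwr-2. The WT peak over CRK11, 3600 bp wide, also touched a hda9-1 peak outside the gene. TBL43, of the family that acetylates cell wall polysaccharides, had 2600 bp in WT and none in either mutant. CONSTANS (CO), the photoperiod regulator of flowering, had 2639 bp in WT, in a peak with 112 reads on chromosome 5 from 5169801 to 5172800, none in hda9-1 and 439 bp in pwr-2. H3K9ac over CO went the other way: 239 bp in each WT library, and 439 and 1039 bp in the hda9-1 libraries. The WT length fell just short of the rule, and the first hda9-1 library exceeded that length by only the 200 bp peak step. The hda9-1 H3K9ac libraries also held more reads in peaks, and the part of this in the call was not tested. Of the 10 largest losses, CO was the one gene that passed the rule for H3K9ac gain.

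Some regions had a peak in both genotypes but a different number of reads. Peaks of the 2 libraries were merged into 13811 regions, of which 9882 had a peak in both, and reads in each were divided by the library's total in peaks. Past 2-fold, 189 regions (1.91%) were higher in hda9-1 and 551 (5.58%) lower. Lower regions made up 74.5% of those past 2-fold, but 59.9% when the libraries were scaled by their median ratio and 61.9% when scaled by peaks of identical position. The median log2 ratio was -0.10, which the median scaling sets to 0.

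These differences went with how far the peaks reached. The log2 read ratio followed the log2 ratio of covered length with a Pearson correlation of 0.86 over the 9882 regions. The regions share both libraries and are not replicates. Part of this link is built in, since a wider peak holds more reads when reads are counted inside peaks only. All 189 higher regions were wider in hda9-1, and 550 of the 551 lower regions were narrower. In the 1487 peaks with the same position in both lists, 0 were past 2-fold higher and 1 lower, and the log2 ratio had an SD of 0.262, against 0.294 for counting error alone. Over all 9882 regions the SD was 0.541 against 0.274 for counting error, and between the 2 WT libraries of H3K9ac, compared the same way over 10214 regions, it was 0.497 against 0.178. Identically placed peaks thus differed by no more than counting error, though equal position itself selects peaks with like reads. Between the 2 hda9-1 libraries of H3K9ac the SD was 0.315, against 0.074 for counting error. The share of regions past 2-fold was 7.49% for H3K14ac, 5.37% between the WT pair and 1.61% between the hda9-1 pair of H3K9ac. The 3 pairs differ in reads in peaks, with a median of 54, 133 and 693 reads per region in the first library of each.

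**Figure D3:**
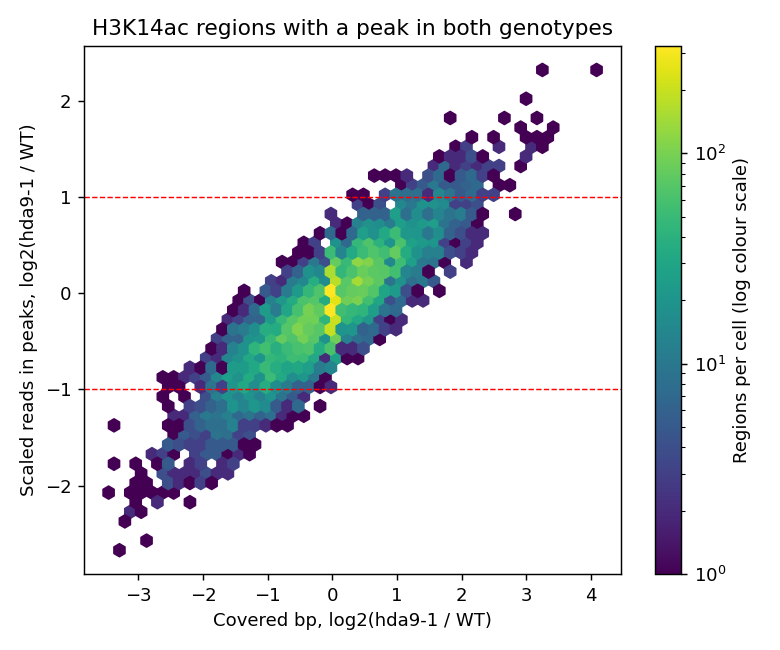
Log2 ratio of scaled reads in peaks (y) against log2 ratio of covered bp (x), hda9-1 over WT, for the 9882 regions with an H3K14ac peak in both genotypes, with colour giving the number of regions per cell on a log scale. Dashed red lines mark 2-fold. Regions past 2-fold lie at the ends of the diagonal, where the covered length changed in the same direction.

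Regions with the highest ratios included the gene PYE, a transcription factor of the iron deficiency response. Its region had 24 reads over 400 bp in WT and 109 reads over 2600 bp in hda9-1. The log2 ratio of these reads was 1.79 (95% exact interval 1.15 to 2.50, counting error only). The 2 counts cover unlike lengths, so the interval is not one for all reads of the region. ERO2, an oxidoreductin of the endoplasmic reticulum, had 25 reads over 400 bp in WT and 107 over 3000 bp in hda9-1. RLP15, a receptor-like protein, had 34 reads over 600 bp and 137 over 3200 bp. The highest ratio was at AT3G57200, with 29 reads over 600 bp in WT and 190 over 5400 bp in hda9-1.

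At the other end, the region of ftsh10, a mitochondrial protease, had 180 reads over 5600 bp in WT and 37 reads over 600 bp in hda9-1. The log2 ratio was -2.67 (95% exact interval -3.22 to -2.16), again for counts over unlike lengths. MFP2, a peroxisomal enzyme of fatty acid beta-oxidation, had 139 reads over 4400 bp and 30 over 600 bp. TAF5, a subunit of the general transcription factor TFIID, had 120 reads over 5000 bp in WT and 33 over 600 bp in hda9-1, while pwr-2 had 205 reads over 5200 bp. RPP13, an immune receptor against downy mildew, had 103 reads over 3400 bp in WT and 28 over 400 bp in hda9-1. AAE11, CYP71A23, TUA5 and SYP73 narrowed in the same manner, from 3200 to 4600 bp in WT to 400 to 1000 bp. Per covered bp the ratio had the opposite sign in 19 of the 20 regions with the highest and lowest ratios, so they are described here as changes of extent.

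H3K9ac was not used to choose the H3K14ac classes and gives a second measure of the same genes. A gene gained H3K9ac where both hda9-1 libraries and neither WT library marked it, which held for 7.45% of the 19465 genes unmarked in both WT libraries. Among genes that gained H3K14ac, 296 of 1088 such genes gained H3K9ac (27.2%). Among genes that lost H3K14ac the count was 85 of 638 (13.3%), and among genes that kept it 368 of 893 (41.2%). Among genes marked for H3K14ac in neither genotype it was 701 of 16846 (4.16%). Among genes unmarked for H3K9ac in WT, the share gaining it was thus highest at genes marked for H3K14ac in both genotypes. Of all genes in each class, H3K9ac was gained at 7.58% of gained, 4.82% of lost, 3.52% of kept and 3.22% of the rest. Of the 1450 H3K9ac gains, 25.4% were at kept genes and 48.3% at genes marked for H3K14ac in neither genotype. With each H3K9ac library left out in turn, the share of unmarked genes gaining it was 29.5% to 41.7% at genes that gained H3K14ac. It was 18.2% to 23.5% for lost, 43.9% to 63.1% for kept and 6.19% to 7.52% for the rest. The hda9-1 H3K9ac libraries held 12265470 and 18171153 reads in peaks, against 1948253 and 2223676 in WT. The part of this difference in the gains was not tested. The H3K14ac classes also differ in make-up. Protein-coding genes were 9590 of the 10465 kept genes and 12980 of the 21762 genes marked in neither genotype. Of these 21762 genes, 20339 had no base of a WT H3K14ac peak, so some had peaks that did not meet the rule. The part of make-up in the shares was not tested.

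**Figure D4:**
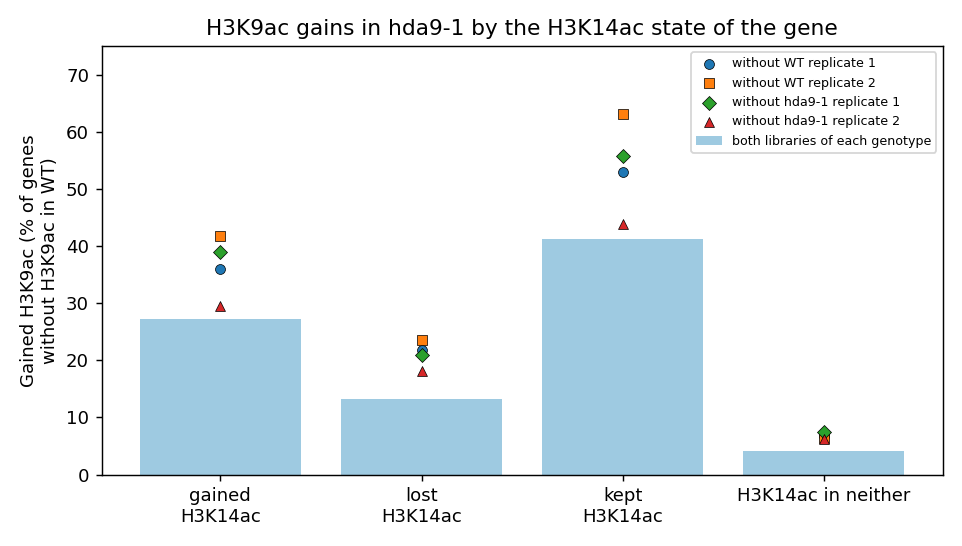
Share of genes that gained H3K9ac in hda9-1 (%, of genes marked in no WT H3K9ac library) by the state of H3K14ac; bars use all 4 H3K9ac libraries and points leave out 1 of them each. The order kept, gained, lost, neither was the same in the bars (41.2%, 27.2%, 13.3% and 4.16%) and in each set of points. The classes differ in make-up, with a smaller share of protein-coding genes among those marked in neither genotype.

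Seen from H3K9ac, the genes that gained both marks were 7.58% of the H3K14ac gains and 20.4% of the 1450 H3K9ac gains. Loss of H3K9ac was rare, at 1.24% of the 13416 genes marked in both WT libraries, and 22 genes lost both marks. These 22 were 2.92% of the 754 such genes that lost H3K14ac. The share was 4.54% (108 of 2381) at genes marked for H3K14ac in neither genotype. It was 0.837% (17 of 2032) at gained and 0.23% (19 of 8249) at kept genes, so joint loss was not particular to genes that lost H3K14ac. Genes not marked for H3K9ac in any of the 4 libraries were 16.4% of H3K14ac gains, 26.8% of losses and 3.55% of kept genes. They were 70.0% of genes marked for H3K14ac in neither genotype. Peaks gave the same picture: 97.2% of shared WT peaks overlapped an H3K9ac peak of some library, as did 83.6% of hda9-1-only and 66.6% of WT-only peaks.

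Among the genes that gained both marks, APX6, an ascorbate peroxidase, had no H3K14ac in WT and 2400 bp in hda9-1, and its H3K9ac was absent in both WT libraries and covered 2600 and 2680 bp in hda9-1. TBL41, another member of the cell wall acetylation family, had no peak of either mark in WT, 1800 bp of H3K14ac in hda9-1 and 2360 bp of H3K9ac in both hda9-1 libraries. NRPE7, a subunit of RNA polymerase V, had 1554 bp of each mark in each hda9-1 library and none in WT. WRKY60, a transcription factor of defence responses, had 1613 bp of H3K14ac with 157 reads in hda9-1 and none in WT, and its H3K9ac covered 213 and 13 bp in WT and 1613 and 1752 bp in hda9-1. CBP60G, a regulator of salicylic acid synthesis, went from no peak of either mark to 1400 bp of H3K14ac and 922 and 1122 bp of H3K9ac. These 5 genes were picked from those called gained in both marks, so marks that are missing or short in WT follow from the choice. MEB1, also called gained in both, had 1200 bp of H3K14ac in WT and 1000 and 0 bp of H3K9ac in the WT libraries.

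Genes that lost both marks included FRO5, a relative of FRO6, with 2540 bp of H3K14ac and 940 bp of H3K9ac in each WT library and neither mark in hda9-1. HMA4, a zinc and cadmium transporter, had 1961 bp of H3K14ac and 4000 and 2212 bp of H3K9ac in WT and neither mark in hda9-1. AAP3, an amino acid permease, had 1522 bp of H3K14ac and 1122 and 1322 bp of H3K9ac in WT, neither in hda9-1, and 1522 bp of H3K14ac in pwr-2.

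Gene lists for processes tied to seedlings and to HDA9 were then counted. Over all genes, 15.2% of unmarked genes gained the mark and 14.4% of marked genes lost it. For protein-coding genes, which make up nearly all list members, these shares were 20.8% and 13.3%. In the circadian clock list of 17 genes, 8 were marked in WT, and 5 of these 8 lost the mark (62.5%) while 2 of 9 unmarked genes gained it. TOC1, a pseudo-response regulator that represses morning genes, had 1200 bp with 44 reads in WT and none in hda9-1. PRR7, of the same family, had 1030 bp in WT, none in hda9-1 and 720 bp in pwr-2. The WT peak over PRR7, 2000 bp wide, also touched a hda9-1 peak outside the gene. ELF3 and LUX (listed as PCL1), which act together in the evening complex, had 1324 and 1000 bp in WT and none in either mutant. TCP11 (AT5G08330, also called CHE), which binds the CCA1 promoter, kept a shorter peak, of 1193 bp in WT and 600 bp in hda9-1.

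The 2 clock genes that gained the mark were RVE1, a MYB-like factor, with 1176 bp and 94 reads in hda9-1 and none in WT, and ELF4, the third member of the evening complex, with 660 bp in a peak of 125 reads. That peak was 3600 bp wide and reached beyond ELF4, and H3K9ac was absent from ELF4 in all 4 libraries. The hda9-1 peaks over RVE1 and ELF4 both also touched a WT peak outside the gene. CCA1 and LHY, the morning factors, had no H3K14ac peak in either genotype and had H3K9ac in every library. H3K9ac over TOC1, PRR7, ELF3 and LUX was listed in both genotypes, so the losses there were seen in H3K14ac alone. The count of 5 lost clock genes was 3 when peaks had to cover 75% of the window and 1 when they had to cover 50% of the whole gene.

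Among 37 flowering time genes, 12 were marked in WT, 3 lost the mark and 3 gained it. Beside CO, GIGANTEA (GI), which promotes CO expression, had 2390 bp in WT, none in hda9-1 and 590 bp in pwr-2. The WT peak held 222 reads but was 7000 bp wide, so most of it lay outside GI, and it also touched a hda9-1 peak elsewhere. H3K9ac covered 600 to 1390 bp of GI in all 4 libraries. RAP2.7, a repressor of flowering of the AP2 family, was called lost with 1400 bp in WT and 1200 bp in hda9-1, a difference of 1 peak step. SMZ, a related repressor, gained 522 bp, SPL15, which promotes flowering, gained 1000 bp, and FVE, a repressor of FLC, gained 600 bp. FLC and FT, the central repressor and the mobile signal of flowering, had no H3K14ac peak in WT, hda9-1 or pwr-2.

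Of the 40 photosynthesis genes, 6 of the 9 marked in WT lost H3K14ac (66.7%) and 6 of the 31 unmarked gained it (19.4%). The losses were LHCB5, PSAH2, PSAK, PSAL, PSBO2 and PSBW, and the largest was at PSAL, a subunit of photosystem I, with 1161 bp and 68 reads in WT and none in hda9-1. PSBO2 still had 1000 bp in hda9-1, against 1200 bp in WT, a difference of 1 peak step. The WT peak over LHCB5, 1800 bp wide, also touched a hda9-1 peak outside the gene. Gains were at LHCB4.2, LHCB4.3, PSAD-1, PSAG, PSBQ-2 and RBCS2B, of which the longest was LHCB4.2, an antenna protein of photosystem II, with 1123 bp and 55 reads. LHCB4.3 was called gained although it had 800 bp in WT and 600 bp in hda9-1, because the hda9-1 peak covered more of a gene end. The hda9-1 peak over PSAG also touched a WT peak outside the gene. RBCS2B lies beside near-identical copies, so its reads are uncertain. With a read minimum of the same width carried over from WT, which drops hda9-1 peaks alone, the list had 2 gains and 8 losses.

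In the immunity list of 21 genes, 4 of 14 unmarked genes gained the mark (28.6%) and 1 of 7 marked genes lost it. The gained genes were RPS2 and the immune kinases BAK1, with 1200 bp, BIK1, with 800 bp, and FRK1, a kinase induced by bacterial flagellin, with 1752 bp, and WT had no peak at any of them. In pwr-2 the same genes had 3272, 1200, 600 and 952 bp. PAD4, a lipase-like regulator of immunity, lost the mark with 1400 bp in WT and 1000 bp in hda9-1. FRK1 had no H3K9ac in any library, and BAK1 and BIK1 had it in all 4.

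The histone acetylation machinery was widely marked, at 23 of 32 genes in WT, and 22 of these kept the mark. Unmarked genes that gained it were the HD2-type deacetylases HD2C, with 542 bp, and HDT4, with 600 bp, and the acetyltransferases HAC2, with 414 bp, and HAF01, with 365 bp. The peaks over these 4 genes held 26 to 43 reads, below the library's median of 58. PWR was the 1 gene of the list that lost the mark.

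In the list of 18 leaf senescence and autophagy genes, NYC1, a chlorophyll b reductase, and APG9, an autophagy protein, each gained 600 bp. NYE1, which starts chlorophyll breakdown, was called lost with 1243 bp in WT and 600 bp in hda9-1. WRKY53, a promoter of senescence, kept H3K14ac, with 800 bp in WT and 600 bp in hda9-1, and gained H3K9ac, from none in WT to 800 and 600 bp. By the rule on gene ends, none of the 26 warm temperature and heat genes gained or lost the mark, with 6 marked in both genotypes. Away from the ends, PIL6 (PIF5) had no peak in WT and 1200 bp in both mutants, and PIL5 (PIF1) had 1800 bp in WT, 600 bp in hda9-1 and none in pwr-2. PIF4, the central factor of warm-induced growth, had no H3K14ac peak in either genotype.

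Of 26 abscisic acid, drought and cold genes, 2 were marked in WT and 2 gained the mark. DREB2A, a drought-response factor, had none in WT and 512 bp in hda9-1, in a peak of 128 reads that was 3800 bp wide. That peak also touched a WT peak outside the gene, and pwr-2 had 1200 bp. DREB2A also gained H3K9ac, with 0 bp in both WT libraries and 596 bp in both hda9-1 libraries. RD26, a NAC factor, was called gained with 600 bp in WT and 1000 bp in hda9-1. In the seed list NF-YB6 (also known as L1L), a relative of LEC1, lost 1023 bp. Its WT peak held 137 reads over 2800 bp and also touched a hda9-1 peak outside the gene. In the meristem list KNAT6, a homeobox gene active in the shoot meristem, had 560 bp of H3K14ac in WT and none in hda9-1. Its WT peak was 1800 bp wide and also touched a hda9-1 peak outside the gene. H3K9ac over KNAT6 covered 0 and 1200 bp in WT and 5411 bp in both hda9-1 libraries. Of 14 housekeeping genes 8 were marked and 1 lost the mark, the ubiquitin gene UBQ10, with 1600 bp in WT, none in hda9-1 and 1200 bp in pwr-2. The actin gene ACT2 also had a peak of 1400 bp with 61 reads in WT and none in either mutant, but this peak did not reach far enough into the gene ends to count as a mark.

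Families were taken from gene symbols. Genes named for embryo-defective mutants, which have essential functions, were widely marked, at 119 of 160 in WT, and 23 of the 41 unmarked gained the mark (56.1%) and 6 of the 119 marked lost it (5.04%). Among protein-coding genes as a whole, 20.8% of unmarked genes gained the mark and 13.3% of marked genes lost it. Examples were emb1507, with no peak in WT and 1202 bp in hda9-1, and EMB1303, with none and 800 bp. The largest losses were at emb2726, with 1375 bp in WT and none in hda9-1, and EMB2271, with 1099 bp and none.

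Cytochrome P450 genes, enzymes of specialised metabolism, lost the mark at 30 of 73 marked genes (41.1%) and gained it at 26 of 168 unmarked genes (15.5%). CYP705A24, CYP704B1 and CYP705A28 had 1940, 1857 and 1835 bp in WT and none in hda9-1. CYP71A28 had 2253 bp in hda9-1 and none in WT, while its H3K9ac was listed at 2330 and 2077 bp in WT and was absent in hda9-1. Many of these genes lie in groups of similar copies, so the sharing of reads among them is uncertain.

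MYB transcription factors lost the mark at 8 of 19 marked genes (42.1%) and gained it at 11 of 102 unmarked genes (10.8%). MYB96, a regulator of wax synthesis, had 2010 bp in WT and none in hda9-1, with H3K9ac over 1800 to 2151 bp in every library. MYB28, a regulator of aliphatic glucosinolates, had 1600 bp in WT, none in hda9-1 and 1000 bp in pwr-2. Among expansins, proteins that loosen the cell wall, 4 of 6 marked genes were called lost, but EXPA1, EXPA13 and EXPA10 still had 1000, 800 and 400 bp in hda9-1, and EXPA18 alone of the 4 had no peak there. EXPA8 gained it, with 1000 bp and 39 reads in WT and 1610 bp and 123 reads in hda9-1.

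In the ARF family of auxin response factors, 6 of 18 unmarked genes gained H3K14ac (33.3%) and 0 of 5 marked genes lost it. ARF11 went from none to 1569 bp, ARF1 and ARF8 from none to 800 bp each, and ARF9 from none to 600 bp. SPL transcription factors, regulators of phase change, had 4 gains among 11 unmarked genes (36.4%) and 0 losses among 5 marked. SPL14 had 800 bp in WT and 2000 bp in hda9-1, and SPL11 had 1000 and 1800 bp. WRKY factors had 6 gains of 51 (11.8%) and 3 losses of 16 (18.8%), with WRKY2 the longest loss, at 2200 bp in WT and none in hda9-1.

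**Figure D5:**
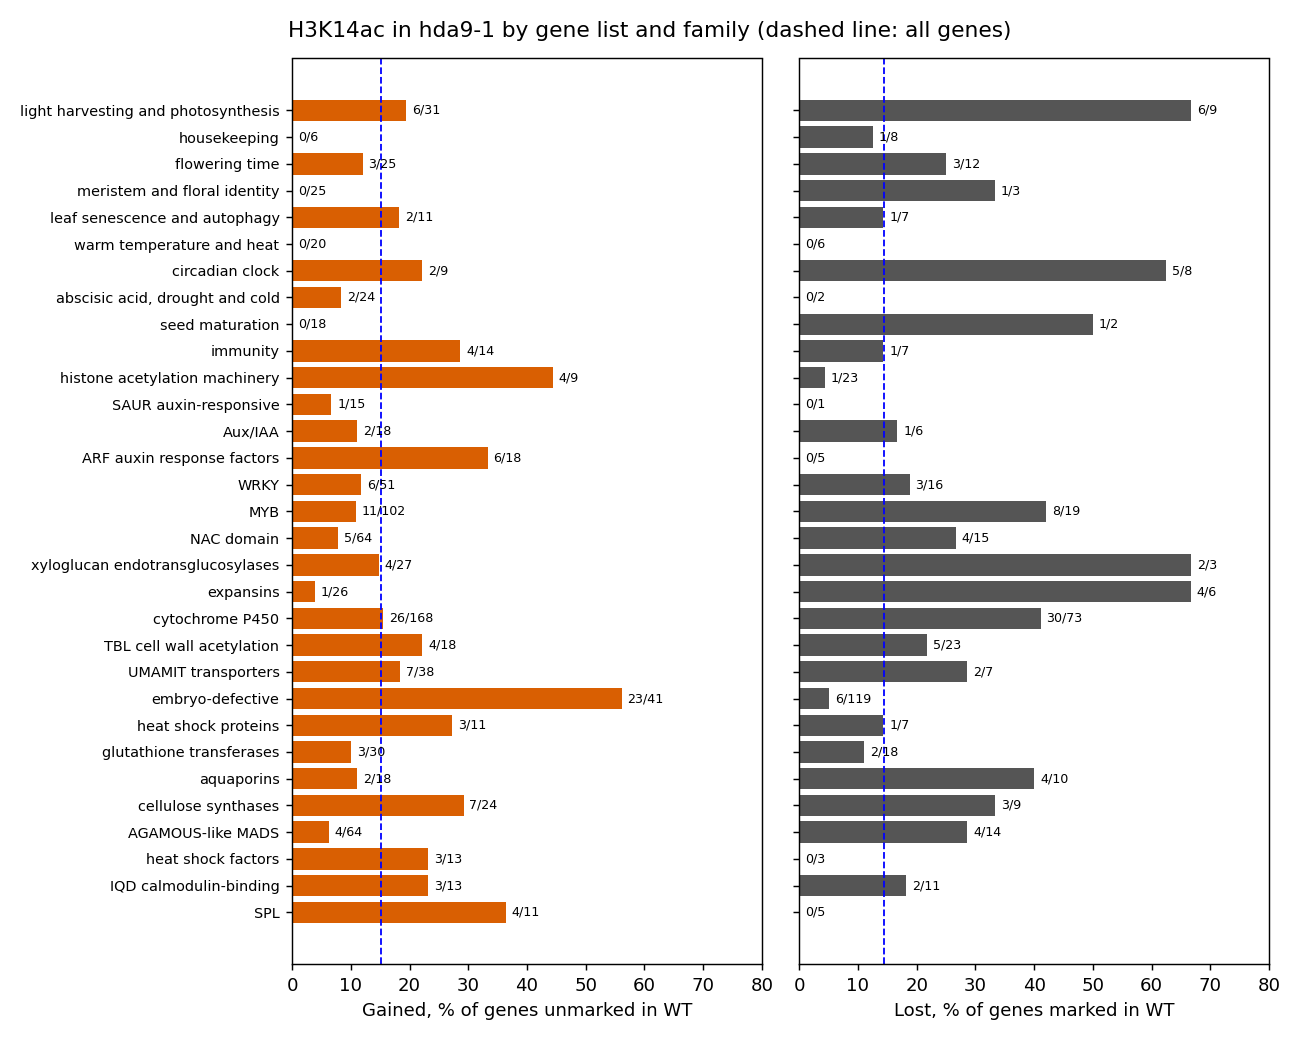
Genes that gained H3K14ac in hda9-1 as a share of those unmarked in WT (left, %) and that lost it as a share of those marked in WT (right, %), by gene list and symbol family, with counts beside the bars. Dashed lines are the shares over all genes, 15.2% and 14.4%. Over protein-coding genes alone, not drawn, the shares were 20.8% and 13.3%. Embryo-defective genes (23 of 41) had the highest share gained, and several high shares lost rest on fewer than 10 marked genes.

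The cellulose synthase superfamily gained the mark at 7 of 24 genes and lost it at 3 of 9. CESA6 and CESA2, subunits for the primary cell wall, had no peak in WT and 1000 and 813 bp in hda9-1, in contrast to the loss at CESA10. NAC factors had 5 gains of 64 and 4 losses of 15, AGAMOUS-like genes 4 of 64 and 4 of 14, and TBL genes 4 of 18 and 5 of 23. UMAMIT transporters had 7 gains of 38 and 2 losses of 7, and xyloglucan endotransglucosylases 4 of 27 and 2 of 3. Aux/IAA genes had 2 gains of 18 and 1 loss of 6, SAUR genes 1 of 15 and 0 of 1, and heat shock factors 3 of 13 and 0 of 3. For the rest, heat shock proteins had 3 gains of 11 and 1 loss of 7, glutathione transferases 3 of 30 and 2 of 18, and IQD genes 3 of 13 and 2 of 11. Aquaporins had 2 gains of 18 and 4 losses of 10, among them PIP2E, with 1521 bp in WT and none in hda9-1. No test was made of these shares.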

How the data were processed

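H3K14ac was measured by chromatin immunoprecipitation and sequencing in 1 library per genotype (WT, hda9-1, pwr-2) and H3K9ac in 2. Shearing aimed at 200 bp and libraries were size-selected for 300 to 400 bp, per the labels' protocols. Bowtie, SICER and the build TAIR10 are named, per the submitters' processing notes, with versions not given in the sources used here. For every peak the deposited lists hold coordinates and an integer, taken from the values to be the count of reads, and peaks were called per library. A list holds only regions above the caller's minimum (at least 18 reads in the WT and hda9-1 H3K14ac lists), so a gene at 0 bp has no peak listed and may have reads.

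Peaks were counted from 1 on TAIR10, in steps of 200 bp. Genes came from the RefSeq table of TAIR10.1 (37899 on 5 chromosomes, 27444 protein-coding, 10870 with a symbol), used for which genes lie under a peak. Peaks of 2 libraries were shared where they overlapped by 1 bp. Regions needed at least 30 reads over both libraries. Intervals of read ratios are exact (Clopper-Pearson, 95%) and cover only the counting error of reads inside each library's own peaks. The overlap and ratio steps were tested on simulated data. Python 3.11.15, numpy 2.4.6, pandas 2.3.3, scipy 1.17.1 and matplotlib 3.10.9 were used.

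The genes named are those with a symbol and the 10 largest gains and losses of covered length, the genes under the 10 highest and 10 lowest regions with at least 100 reads, changed members of 11 lists (279 genes, all matched by locus), up to 4 changed members per direction in 20 symbol families, HDA9 and PWR. Other list members, the 5 peaks with most reads in 1 genotype and the genes changed in both marks were named after their values were seen, as was a narrowing of the aquaporin symbols. The members and lists were chosen with earlier results of these data known. Planned counts of promoter motifs were not made, and a planned window after the transcription start was not run for lack of strand. Alternatives changed the covered share, the window, the read minimum, the overlap, the scaling, the fold and the libraries.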

Additional observations from a re-analysis of the deposited data

Results flagged for a closer look

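At CO the 2 marks were called in opposite directions in hda9-1. The gene lost H3K14ac, with a difference in covered length of -2639 bp. Both hda9-1 libraries and neither WT library marked CO for H3K9ac. That H3K9ac call is a narrow one, since 239 bp in each WT library fell just short of the rule. The hda9-1 libraries had 439 and 1039 bp, the former longer than WT by only the 200 bp peak step. KNAT6 was called in the same directions as CO, with a difference in H3K14ac of -560 bp and H3K9ac over 5411 bp in both hda9-1 libraries. In WT the H3K9ac of KNAT6 covered 0 and 1200 bp. The WT H3K14ac peak was 1800 bp wide and also touched a hda9-1 peak outside KNAT6. The difference between the marks was not tested, and H3K14ac had 1 library per genotype. Over all genes, 85 lost H3K14ac and gained H3K9ac, which is 4.82% of the H3K14ac losses and 5.86% of the H3K9ac gains. H3K9ac was gained at 3.52% of genes that kept H3K14ac and 3.22% of those marked in neither genotype. Of genes unmarked for H3K9ac in WT the share was 13.3% (85 of 638), against 7.45% over all genes. The reverse, H3K14ac gained and H3K9ac lost, held at 17 genes. These were 0.837% of the 2032 H3K14ac-gained genes marked for H3K9ac in both WT libraries, against 1.24% over all genes.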

How the results depend on the processing

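No paired analysis was possible because H3K14ac has 1 library per genotype and no result comes from a test, and leaving out an H3K14ac library leaves no comparison. Genes gained stayed between 2842 and 3901 and genes lost between 1632 and 2618 under the alternatives of window, covered share and read minimum, against 3907 and 1765. Restricted to peaks that touched none of the other genotype, a choice made after seeing the data, they were 2536 and 791. The whole-gene rule shared 38.3% of the gained and 52.9% of the lost genes with the end rule. A read minimum for hda9-1 by peak width was also added after seeing the data. With it, 1650 peaks were found only in WT and 1979 only in hda9-1. It drops hda9-1 peaks alone, so it can only raise the first count and lower the second.

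Regions past 1.5-fold were 804 higher and 1737 lower. Per covered bp they were 114 and 288, and among peaks of identical position 0 and 1. Per covered bp the log2 ratios of regions with the highest ratios became -0.85 (AT3G57200), -1.81 (AT5G18340), -0.94 (AT1G02290), -1.33 (AT2G36730), -0.91 (PYE), -1.20 (ERO2), -1.28 (AT4G33670), -0.48 (AT4G24860) and -0.79 (RLP15). Those with the lowest became 0.55 (ftsh10), 0.27 (MFP2), 0.79 (AAE11), 0.71 (AT2G33680), 0.82 (RPP13), 0.81 (TAF5), 0.55 (AT1G48970), 0.86 (CYP71A23), 0.06 (TUA5) and 0.54 (SYP73). Dividing by covered length removes by construction a difference that lies in peak width. Dropping the read minimum changed nothing, since every region held at least 30 reads.

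The share of genes gaining H3K9ac ranged, with 1 H3K9ac library left out, from 29.5% to 41.7% at genes that gained H3K14ac (27.2% with all), 18.2% to 23.5% at lost (13.3%), 43.9% to 63.1% at kept (41.2%) and 6.19% to 7.52% at the rest (4.16%). These are all above the value with all libraries, because a rule on fewer libraries is met more easily. Of the list counts under other settings, 109 stayed within 1.5 times and 45 did not. Median reads per peak of 52 and 58 limit what a single peak can show.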

Other observations

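Non-coding genes also changed. Of 287 snoRNA genes, which guide the modification of ribosomal RNA, 82 were marked in WT and 128 in hda9-1, with 67 gained (32.7% of those unmarked) and 21 lost (25.6% of those marked). Of 326 miRNA genes 37 were marked in each genotype, but 17 were gained and 17 lost, so 45.9% of the marked miRNA genes lost the mark against 14.4% of all genes. Of 3480 lncRNA genes 241 were gained (8.46% of those unmarked) and 146 lost (23.1% of those marked). Of 3917 pseudogenes 32 were gained (0.836%) and 20 lost (22.7%). Over all genes the shares were 15.2% gained and 14.4% lost. Short genes can lie within a peak of a neighbouring gene, and the part of neighbours in these counts was not tested.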
